A study of Mus musculus with 4 samples.

Results

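The genes described here encode 34 cytosolic and mitochondrial protein-folding chaperones, their co-chaperones and the heat shock factors that control many of them. They were taken by gene symbol from a table of 54532 mouse genes, each symbol matched 1 row, and all 34 passed the low-count filter. RNA was sequenced from cultured epidermal stem cells (EpSCs), the keratinocyte progenitors of the skin, of C57BL/6 mice. The medium was EpiLife with HKGS additives. Over 48 h the cells of one group were exposed to ALP at 30 μg/mL, which the title of the series links to a polysaccharide of Arctium lappa L. (burdock), and those of the control group to DMSO at 0.06%. Each group held 2 libraries, named A and B here, and the labels do not say whether these came from separate cultures or animals or whether the ALP-treated cells were also given DMSO. P-values therefore measure only the spread between these libraries, which may be technical.

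Chaperones bind unfolded or partly folded proteins and release them in cycles driven by ATP. HSP70 proteins, with J proteins that deliver substrates and exchange factors that reset them, act early on many new chains. HSP90 takes over signalling proteins such as kinases and steroid receptors, and the ring-shaped chaperonins, TRiC/CCT in the cytosol and HSP60 with its lid HSP10 in mitochondria, enclose substrates such as actin and tubulin or imported proteins. Heat shock factor 1 induces many of these genes when unfolded proteins accumulate, and in the epidermis small heat shock proteins are best known from differentiating keratinocytes.

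Total gene counts lay between 15766244 and 17430345 per library, and 3 counts, the limit that a count of 0 allows, correspond to between 0.172 and 0.19 CPM (counts scaled to a library of 1000000 counts). The libraries differed by more than counting noise within each group, with a chi-square per degree of freedom of 5.92 for the controls and 22.4 for the ALP pair. The 7 basal keratinocyte markers were abundant in every library, with sums of 36206 and 29852 CPM in ALP replicates A and B against 48354 and 48537 CPM in the controls. Of these, Itga6 and Itgb4 rose, Trp63 and Col17a1 fell, and the keratin genes Krt5, Krt14 and Krt15 did not pass. The 6 differentiation markers summed to 829 and 33.0 CPM in ALP replicates A and B against 3254 and 2696 CPM in the controls, and 4 of them fell. Markers of fibroblasts (4.46 to 17.5 CPM over 6 genes, with Lum at 0 counts in every library), melanocytes (53.7 to 64.7 CPM over 5), endothelium (6.17 to 25.0 CPM over 4) and immune cells (0.129 to 0.453 CPM over 5, with Cd3e and Cd207 at 0 counts) were low. Of the endothelial genes Pecam1 and Kdr rose and Tek fell, and of the fibroblast genes Dcn fell. The part of these shifts in the chaperone results was not tested, and in bulk RNA fewer cells of a type and less RNA per cell cannot be told apart.

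After ALP, 16 of the 34 chaperone genes rose and 4 fell, and 14 did not pass (edgeR quasi-likelihood test, adjusted p under 0.05). The genes that rose were 5 of the 8 TRiC/CCT subunits, Hsp90aa1, 4 of 5 HSP90 co-chaperones, Hspa8, Hspa4, Hsph1, Dnaja1, Hspd1 and Hsf1. Those that fell were Hspa1a, Dnajb1, Dnajb4 and Hspb8. Over all 14056 genes tested, 30.9% were called, 18.0% as higher and 12.9% as lower. Among the genes that averaged 50 CPM or more, 43.5% were called, 27.7% as higher and 15.9% as lower, against 15 and 3 of the 31 chaperone genes at that level. The median log2 fold change of the 34 genes was 0.30 and that of all genes tested was -0.0029. In all 34 genes both ALP libraries lay on the same side of both controls, in 26 of them above and in 8 below, a separation that 75.7% of all tested genes showed (38.2% above and 37.5% below). The shift from the control mean was larger in ALP replicate B than in ALP replicate A in 31 of the 34 genes. These 31 included each of the 20 called genes. Over all genes compared, ALP replicate B also lay farther from the controls. Its chi-square per degree of freedom against control replicates A and B was 147 and 119, and that of ALP replicate A was 75.6 and 53.6. The calls were lost on leaving out either control library, and so were those of all other genes. Each of these fits took its spread from the ALP pair alone, so the loss is not particular to the chaperone genes. All 34 genes kept their direction. Their median log2 fold change was 0.302 when control replicate A was dropped and 0.311 when B was.

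**Figure D1:**
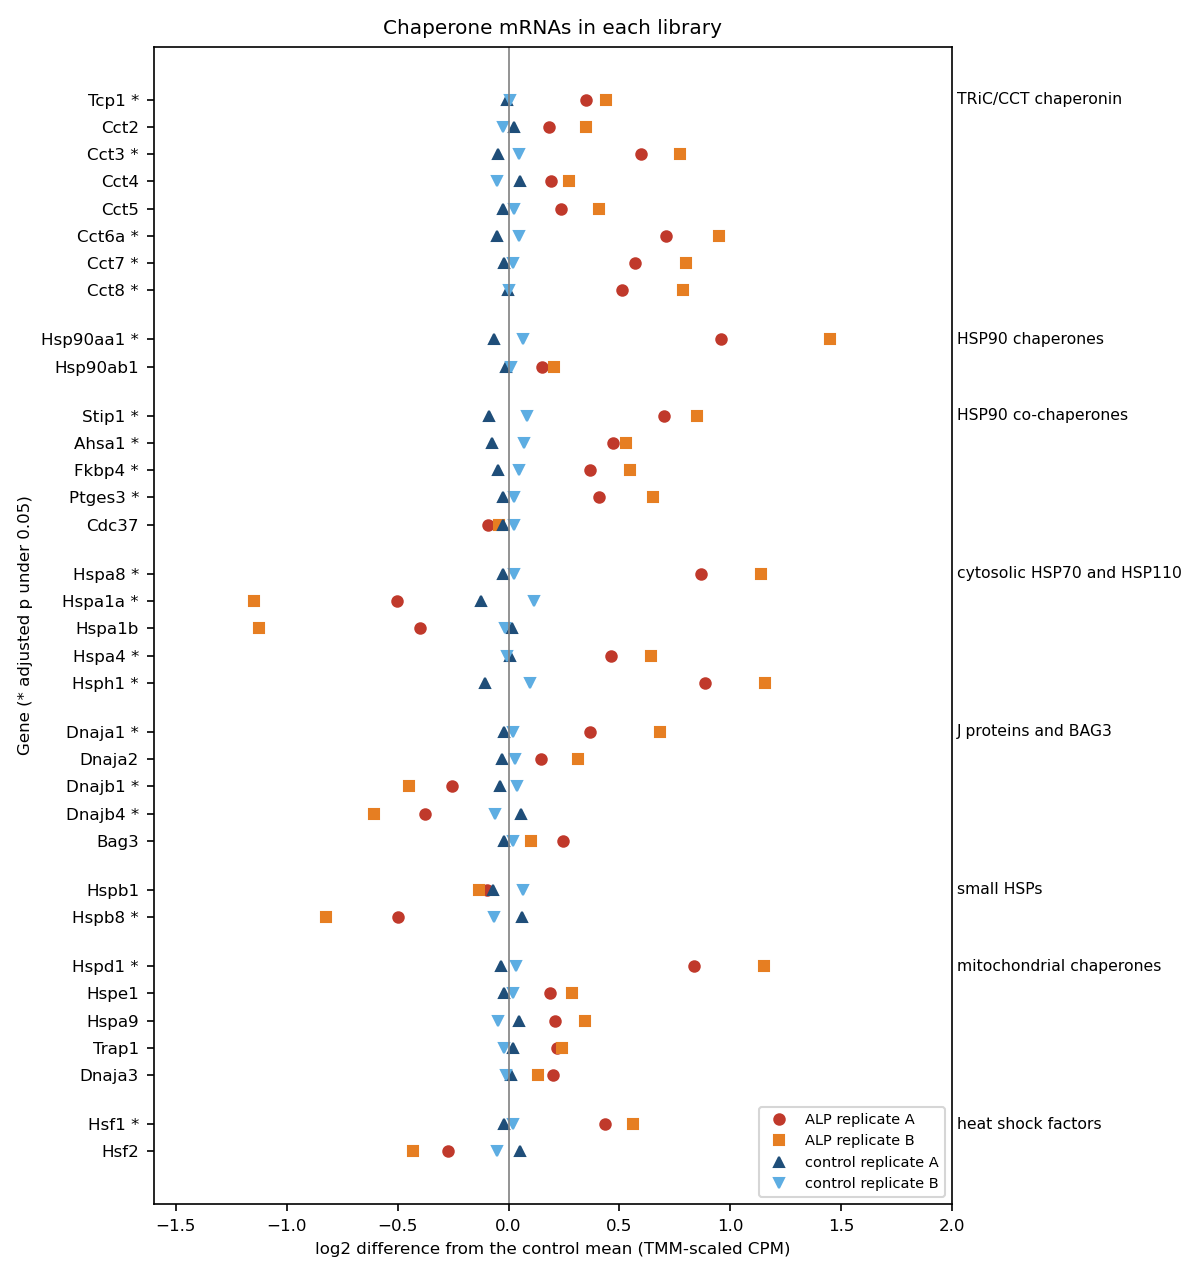
Log2 difference of each chaperone gene from the mean of the control libraries (x axis, TMM-scaled CPM) in each of the 4 libraries, with genes ordered by role on the y axis and an asterisk on the 20 that passed the test. Both ALP libraries lie to the right of the controls for 26 genes and to the left for 8. ALP replicate B lies farther out than ALP replicate A in 31 of the 34 genes, including the 20 called.

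The levels were next summed by role. Over the 8 TRiC/CCT genes, mRNA was 2932 and 3327 CPM in ALP against 2211 and 2228 CPM in control, 41.0% higher by the group means. The sum of the 5 cytosolic HSP70 and HSP110 genes was 3762 and 4264 CPM in ALP against 2427 and 2493 CPM, 63.2% higher. Most of that rise came from Hspa8, which made up 2905 of a mean of 4013 CPM in ALP and 1445 of 2460 CPM in control. The sums were 33.3% higher for the HSP90 pair, 34.5% higher for the HSP90 co-chaperones and 44.5% higher for the 5 mitochondrial chaperones. Those of the J proteins with Bag3 (9.34%) and of the heat shock factors (9.53%) were higher by less. In the mitochondrial sum Hspd1 made up 733 of a mean of 1712 CPM in ALP and 366 of 1185 CPM in control. The small heat shock proteins stood at 654 and 629 CPM in ALP against 687 and 742 CPM in control, a change of -10.2%. In all 8 roles the ALP and control sums did not overlap, and with 2 libraries against 2 an exact two-sided permutation test cannot go below p = 0.33, so these sums carry no test. The median log2 fold changes ran from 0.70 for the HSP90 pair, 0.55 for HSP70 and HSP110, 0.53 for TRiC/CCT and 0.50 for the HSP90 co-chaperones, through 0.24 for the mitochondrial genes, 0.18 for the J proteins with Bag3 and 0.075 for the heat shock factors, to -0.38 for the small heat shock proteins. In roles of 2 genes the median is the midpoint of unlike values. These were 1.22 and 0.18 for HSP90, 0.50 and -0.35 for the heat shock factors, and -0.12 and -0.65 for the small heat shock proteins.

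Some members have sequence in common with other genes, which bears on their counts. The most alike are Hspa1a and Hspa1b, the stress-inducible HSP70 genes, each a single exon on the minus strand of chromosome 17 (GRCm38, chr17:34969190-34972156 and chr17:34956436-34959238) with 9951 bases between them. Of the stretches of 50 bases in their transcripts, 58.8% of those of Hspa1a also occur in Hspa1b, and 62.3% of those of Hspa1b occur in Hspa1a. Their upstream regions, the 250 bases before the start in RefSeq (GRCm38.p6), are identical at 247 positions and differ at 3. They are shown because both genes measured lower in ALP while the other 3 cytosolic HSP70 and HSP110 genes among the 34, Hspa8, Hspa4 and Hsph1, rose, and the capitals mark the only match to the heat shock element letters described next, 104 to 97 bases before the start.
Hspa1a upstream, chr17:34972157-34972406, minus strand: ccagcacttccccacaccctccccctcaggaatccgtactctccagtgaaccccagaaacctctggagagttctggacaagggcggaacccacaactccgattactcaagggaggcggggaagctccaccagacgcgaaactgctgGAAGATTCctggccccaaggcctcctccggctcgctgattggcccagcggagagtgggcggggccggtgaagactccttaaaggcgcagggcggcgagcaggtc
Hspa1b upstream, chr17:34959239-34959488, minus strand: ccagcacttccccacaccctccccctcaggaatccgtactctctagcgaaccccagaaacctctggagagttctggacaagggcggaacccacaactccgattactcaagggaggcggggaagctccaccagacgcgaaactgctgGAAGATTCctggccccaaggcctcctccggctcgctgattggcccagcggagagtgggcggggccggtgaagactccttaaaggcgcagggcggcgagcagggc

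The heat shock element is built from inverted repeats of GAA, and promoters were searched for the 2-unit forms GAANNTTC and TTCNNGAA, each its own reverse complement, so that both strands were read. Windows ran from 250 bases before to 50 after each start in RefSeq and were found for 28 of the 34 members. Some genes had more than 1 window (36 in all), and a match in any of them counted. At least 1 match was present in 15 of the 28 (53.6%) and in 17.0% of all genes with a window. By outcome, 5 of 13 members that rose, 3 of 4 that fell and 7 of 11 that did not pass held a match. The 3-unit form, in which a further unit follows at the same spacing and which therefore contains 2-unit matches, was present on either strand in Hspd1, Hspe1 and Hsph1 and in 0.662% of all genes. The Hspd1 and Hspe1 matches are the same DNA, and the 3-unit match of Hsph1 lies after the start. The 15 members with a match include both genes of that shared DNA and both of the nearly identical Hspa1a and Hspa1b windows. The letters CACGTG, the E-box bound by MYC among others, were present in 3 of 28 members, Hspd1, Hsph1 and Hsf2, and in 8.09% of all genes. A match describes letters only, and imperfect elements were not searched. The Hspd1 and Dnajb4 matches printed below belong to starts inside the genes. The windows at the 5′ ends of these genes (chr1:55088194-55088493 and chr3:152210034-152210333) held 0 matches to the 2-unit forms. The Dnaja1 stretch lies in annotated exons of Dnaja1 and Gm6297, and the other Dnaja1 windows held 0 matches. The Fkbp4 stretch lies in an annotated exon of Gm10069. The following stretches of 30 bases from GRCm38.p6, 5′ to 3′ on the gene's strand, set matches of genes that rose beside those of genes that fell or did not pass, with the matched run in capitals.
Hspd1, rose, chr1:55088053-55088082, minus strand: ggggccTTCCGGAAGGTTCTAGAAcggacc
Hspe1, did not pass, chr1:55088053-55088082, plus strand: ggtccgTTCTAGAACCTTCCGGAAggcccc
Fkbp4, rose, chr6:128438789-128438818, minus strand: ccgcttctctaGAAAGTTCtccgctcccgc
Dnaja1, rose, chr4:40722333-40722362, plus strand: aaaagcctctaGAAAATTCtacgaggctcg
Dnajb4, fell, chr3:152193846-152193875, minus strand: gttcgttcgttcgctgTTCTAGAAagtaca
Hspb1, did not pass, chr5:135887791-135887820, plus strand: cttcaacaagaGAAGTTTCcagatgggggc
Hspb1, did not pass, chr5:135887811-135887840, plus strand: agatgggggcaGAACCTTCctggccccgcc

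TRiC/CCT is a double ring of 8 different subunits, each from its own gene, and all 8 mRNAs were higher in both ALP libraries than in either control, as were 38.2% of all genes tested. Cct6a, which encodes the zeta subunit, measured 350 and 413 CPM in ALP and 207 and 221 CPM in control. It rose by 0.83 ± 0.11 on the log2 scale (SE; adjusted p = 0.0149), the most of the complex. The theta subunit gene Cct8 measured 357 and 433 CPM against 250.1 and 251 CPM, up by 0.66 ± 0.11. Cct7 (eta) measured 401 and 470.1 CPM against 266 and 274 CPM, up by 0.69 ± 0.10, and Cct3 (gamma) measured 338 and 382 CPM against 216 and 231 CPM, up by 0.69 ± 0.10. In all 8 subunit genes the lower ALP library exceeded the higher control by a margin wider than the gap between the controls. The share of all genes tested with such a margin was not counted. Tcp1, the alpha subunit gene for which the complex is also named, rose by 0.40 ± 0.08, from 281 and 283 CPM to 360.0 and 383 CPM.

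The other three subunits did not pass. Cct5 (epsilon) measured 370 and 417 CPM in ALP and 309 and 320 CPM in control, with a log2 difference of 0.32 ± 0.09 (adjusted p = 0.0504), and it passed by DESeq2 (adjusted p = 0.0453) and limma-voom (adjusted p = 0.0447). Cct2 (beta) differed by 0.27 ± 0.09 and Cct4 (delta) by 0.23 ± 0.09. Per length, in CPM per kilobase of the deposited gene length, the most abundant subunit was Cct2 and the least abundant Cct3 in all 4 libraries. The ratio between them was 4.49 and 4.05 in the controls and 3.20 and 3.18 in ALP, so the spread among the subunits was narrower in the ALP libraries. This scale depends on the length of the gene model, so the ratio itself is no measure of subunit stoichiometry. Exons of Cct6a overlap those of Psph on the opposite strand over 12.5% of their bases, and those of Tcp1 overlap Acat3 over 11.4%. No source used here gives the strand setting of the counting, so reads there cannot be assigned with certainty.

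HSP90 has 2 cytosolic forms, of which 1 rose at the mRNA level. Hsp90aa1, the inducible alpha form (chr12:110690605-110702728), measured 999.6 and 1406 CPM in ALP and 492 and 538 CPM in control. It rose by 1.22 ± 0.18 (adjusted p = 0.0151), a 2.34-fold change and the largest of the 34 genes. Hsp90ab1, the constitutive beta form (chr17:45567775-45573271), measured 2837 and 2945 CPM against 2538 and 2575 CPM (0.18 ± 0.12, adjusted p = 0.275, not passed). Per length the alpha mRNA amounted to 0.148 and 0.159 of the beta mRNA in the controls and to 0.269 and 0.364 in ALP. The log2 ratio was thus 1.03 higher in ALP by the means, more than the spread within either group (SD 0.31 in ALP and 0.077 in control). Of the 50-base stretches of Hsp90aa1 47.5% occur in other genes, mostly in the pseudogene Gm12346. The 4 pseudogenes concerned held 816 counts over the 4 libraries against 57123 for Hsp90aa1.

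The 5 HSP90 co-chaperones among the 34 genes rose with 1 exception. Stip1, which encodes HOP, the adaptor that joins HSP70 to HSP90, measured 304 and 337 CPM in ALP and 176 and 198 CPM in control, up by 0.78 ± 0.10. Ahsa1, the gene of the activator of the HSP90 ATPase, measured 146 and 152 CPM against 100.1 and 110.5 CPM, up by 0.50 ± 0.09. The immunophilin gene Fkbp4, whose product acts in steroid receptor complexes, measured 281 and 319 CPM against 211 and 225 CPM, up by 0.46 ± 0.10. For these 3 genes, as for Ptges3 and for 38.2% of all genes tested, both ALP libraries lay above both controls. Ptges3, which encodes the late-acting p23, rose by 0.54 ± 0.11, from 107 and 111 CPM to 145 and 171 CPM. Its count is uncertain, since 19.5% of its 50-base stretches occur in the pseudogene Ptges3-ps, which had 929 and 809 counts in ALP and 657 and 642 in control. Cdc37, the adaptor that brings kinases to HSP90, stood at 225 and 233 CPM in ALP against 236 and 244 CPM, a difference of -0.068 ± 0.079 (adjusted p = 0.533).

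Within the HSP70 family the main constitutive gene rose and 1 of the 2 inducible genes fell. Hspa8, which encodes the constitutive HSC70 (chr9:40800984-40810087), measured 2634 and 3176 CPM in ALP and 1420 and 1470 CPM in control. It rose by 1.007 ± 0.136 on the log2 scale (adjusted p = 0.015), 2.01-fold. Hspa1a measured 51.0 and 32.6 CPM in ALP and 66.4 and 78.3 CPM in control and fell by 0.79 ± 0.22 (adjusted p = 0.0459). Its 2 ALP libraries lay far apart, and the difference was -0.49 without ALP replicate B. Hspa1b, by counts the more abundant copy, measured 343 and 207 CPM against 457 and 446 CPM. The log2 difference, -0.72 ± 0.23, missed the threshold by edgeR (adjusted p = 0.0634) and passed by DESeq2 (adjusted p = 0.00583) and limma-voom (adjusted p = 0.0468). As with Hspa1a the value depended on the ALP library, at -0.39 without ALP replicate B and -1.13 without ALP replicate A.

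Because these 2 genes are so alike, reads can be split between them, and their counts were also summed. The sum measured 394 and 240 CPM in ALP against 523 and 524 CPM in control (-0.73 ± 0.23, adjusted p = 0.0594, not passed). Set against Hspa8 within each library, the summed level per length of Hspa1a and Hspa1b amounted to 0.561 and 0.542 of Hspa8 in the controls. In ALP it amounted to 0.228 and 0.115. On the log2 scale this ratio differed by -1.77 between the means of ALP and control, with an SD of 0.70 in ALP and 0.035 in control. Hspa8 itself has 39.4% of its 50-base stretches in other genes, chiefly pseudogenes, 12 of which held 352 counts against 145452 for Hspa8.

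The HSP110 proteins are distant relatives of HSP70 that act as its exchange factors, and both genes listed here rose. Hsph1, encoding HSP105, measured 228 and 275 CPM in ALP and 115 and 132 CPM in control, up by 1.03 ± 0.13 (adjusted p = 0.0149), 2.04-fold. Hspa4, encoding APG-2, measured 506 and 573 CPM against 369 and 366 CPM, up by 0.55 ± 0.10. None of the 50-base stretches of Hsph1 or Hspa4 occurs in another gene.

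J proteins stimulate the HSP70 ATPase, and among those listed here 1 of the A type rose and 2 of the B type fell. Dnaja1 measured 235 and 292 CPM in ALP and 179 and 184 CPM in control and rose by 0.54 ± 0.12. Dnaja2, with 199.9 and 224 CPM against 177 and 185 CPM, differed by 0.23 ± 0.09 and did not pass (adjusted p = 0.107). Dnajb1, which encodes the classical stress-inducible HSP40, measured 167 and 147 CPM in ALP and 195 and 205 CPM in control and fell by 0.35 ± 0.10 (adjusted p = 0.0455). Dnajb4, of the same type, measured 41.8 and 35.6 CPM against 56.4 and 52.0 CPM and fell by 0.49 ± 0.12. In both B-type genes ALP replicate B was the lowest library. Bag3, which links HSP70 to small heat shock proteins and selective autophagy, measured 100.5 and 90.7 CPM against 83.4 and 85.9 CPM (0.18 ± 0.09, adjusted p = 0.19). The exons of Dnaja1 overlap those of Smu1 on the opposite strand over 7.05% of their bases.

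Small heat shock proteins hold unfolding proteins without using ATP. Hspb8, the partner of BAG3, measured 43.8 and 35.0 CPM in ALP and 64.6 and 59.1 CPM in control and fell by 0.65 ± 0.14 (adjusted p = 0.0245). Hspb1, which encodes HSP25, the mouse counterpart of human HSP27, measured 610 and 594 CPM in ALP against 623 and 683 CPM (-0.12 ± 0.09, adjusted p = 0.366, not passed). Per length Hspb1 was the second most abundant of the 34 mRNAs in control, at 633 ± 41.3 CPM per kilobase (mean ± SD, n = 2), after Hsp90ab1 at 852 ± 8.69. In ALP Hspa8, at 675 ± 89.1 CPM per kilobase, came between them by the means, and Hspb1 stood at 584 ± 10.6. The ALP values of Hspa8, 612 and 738, and of Hspb1, 591 and 577, lay close together in ALP replicate A. Of the 50-base stretches of Hspb1 48.8% occur in the pseudogene Hsp25-ps1.

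**Figure D2:**
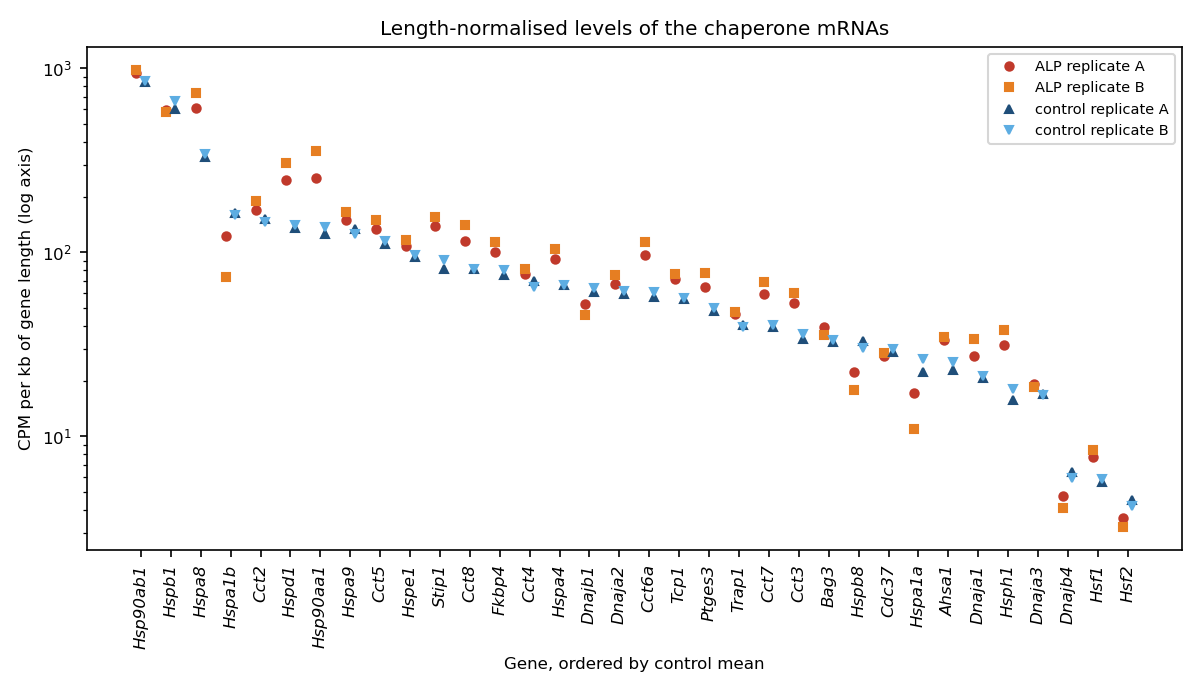
CPM per kilobase of each chaperone gene (y axis, log scale) in the 4 libraries, ordered along the x axis by the control mean. Hsp90ab1 is the highest in both groups, Hspa1b drops from rank 4 in control to rank 14 in ALP by the group means, and Hsp90aa1 moves from rank 7 to rank 4.

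Of the 5 mitochondrial genes only Hspd1 passed the test. Hspd1, which encodes the chaperonin HSP60, measured 653 and 813 CPM in ALP and 357 and 375 CPM in control, and rose by 1.003 ± 0.128 (adjusted p = 0.0149), 2.004-fold. Hspe1, which encodes its lid HSP10, measured 160.2 and 171 CPM against 138 and 143 CPM (0.24 ± 0.08, adjusted p = 0.0764). The 2 genes lie head to head on chromosome 1 (chr1:55077835-55088243, minus strand, and chr1:55088132-55091307, plus strand), and the genes overlap by 112 bases, which take 7.60% of the exon bases of Hspe1 and 4.24% of those of Hspd1. Reads from the overlap cannot be assigned with certainty without the strand setting, which bears on the ratio of the 2 genes. The 18-base run of heat shock element letters printed above is the same DNA read on both strands and lies within an annotated exon of Hspd1. Per length Hspe1 amounted to 0.695 and 0.683 of Hspd1 in the controls and to 0.440 and 0.378 in ALP. The mean log2 ratio differed by -0.76 (SD 0.16 in ALP and 0.018 in control). Both genes have processed pseudogenes. Other genes hold 42.1% of the 50-base stretches of Hspd1 and 22.8% of those of Hspe1, the 9 pseudogenes concerned had 693 counts against 36731 for Hspd1, and the 5 for Hspe1 had 18 counts against 10363.

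The remaining mitochondrial members did not pass. Hspa9, encoding mortalin, the HSP70 of the import motor, measured 590 and 648 CPM in ALP and 526 and 494 CPM in control (0.28 ± 0.10, adjusted p = 0.0731). Trap1, the mitochondrial HSP90, measured 120 and 121 CPM against 104 and 101 CPM (0.23 ± 0.08, adjusted p = 0.074). Dnaja3, a mitochondrial J protein, differed by 0.17 ± 0.09. In all 3 genes both ALP libraries were above both controls, as in 38.2% of all genes tested. Their shifts were smaller than that of Hspd1. Transcripts of the mitochondrial genome itself took 1.73% and 1.71% of the counts in ALP and 2.29% and 2.12% in control.

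**Figure D3:**
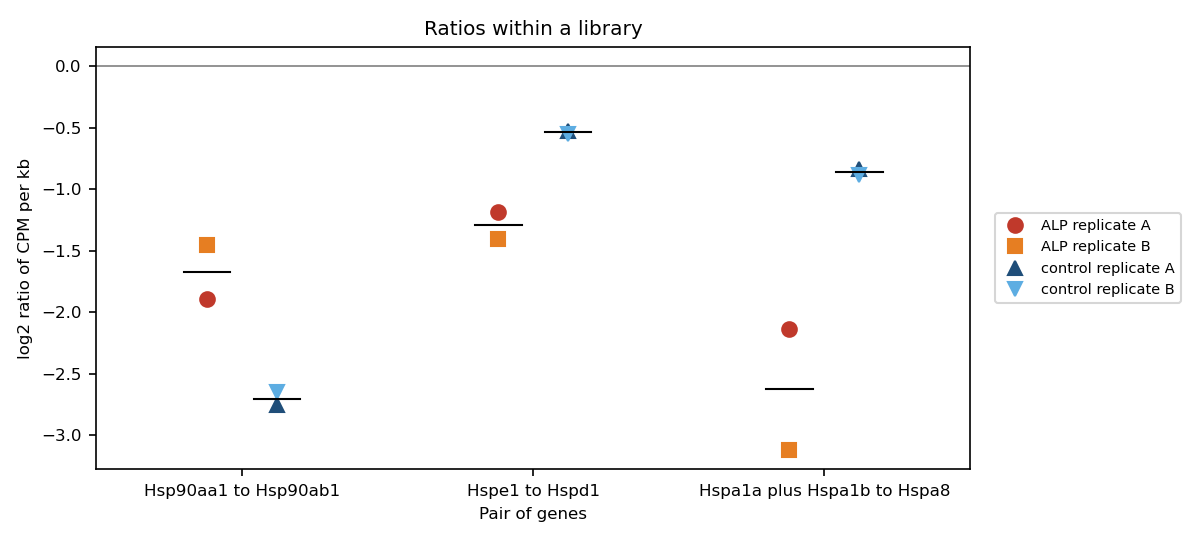
Log2 ratio of CPM per kilobase within each library (y axis) for 3 pairs of chaperone genes, with a line at the mean of each group. The ratio of Hsp90aa1 to Hsp90ab1 is higher in both ALP libraries than in both controls, by a mean of 1.03. The ratios of Hspe1 to Hspd1 and of Hspa1a plus Hspa1b to Hspa8 are lower, with mean differences of -0.76 and -1.77.

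The mRNAs of the heat shock factors were, with Dnajb4, the 3 lowest of the 34 per length in both groups. Hsf1, encoding the main regulator of the heat shock response, whose activity is set chiefly on the protein, measured 55.1 and 60.3 CPM in ALP and 40.2 and 41.4 CPM in control and rose by 0.50 ± 0.10 (adjusted p = 0.0213). Hsf2, a relative with roles in development, measured 34.6 and 31.0 CPM against 43.3 and 40.3 CPM (-0.35 ± 0.11, adjusted p = 0.0636). It missed the threshold but passed with upper quartile scaling (adjusted p = 0.0499) and in a fit restricted to genes averaging 10 CPM or more (adjusted p = 0.0431). Per length Hsf1 measured 5.74 ± 0.13 CPM per kilobase in control and 8.12 ± 0.52 in ALP, and Hsf2 measured 4.35 ± 0.22 and 3.41 ± 0.27.

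Genes of the same pathways outside the 34 were examined next. Of 83 listed genes 74 were tested, 15 rose and 2 fell (23.0%, beside 30.9% of all genes), with a median log2 fold change of 0.11. Among 15 further HSP90 co-chaperones 9 had an unadjusted p under 0.05, as had 6552 of all 14056 genes tested. In this list 5 rose and 0 fell (33.3% called, beside 30.9% of all genes). Those that rose were Ppp5c, a phosphatase (0.57 ± 0.09), Ppid, a cyclophilin (0.63 ± 0.11), Nudc (0.68 ± 0.12), Chordc1 (0.59 ± 0.12) and Ahsa2, a relative of Ahsa1 (0.60 ± 0.15). Among 10 further HSP70 genes and exchange factors that were tested, Hspa14, a ribosome-linked HSP70, rose by 0.54 ± 0.09, and the exchange factor genes Hspbp1 and Bag2 rose by 0.46 ± 0.10 and 0.66 ± 0.16. Hspa4l, a further HSP110 gene, fell by 0.49 ± 0.09 from 254 ± 18.1 to 181 ± 9.40 CPM (mean ± SD), opposite to Hspa4 and Hsph1. The share called among these 10 genes was 40%, beside 30.9% of all genes. Chordc1, Ahsa2 and Bag2 were named after their values were seen.

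Prefoldin hands new actin and tubulin chains to TRiC/CCT, and of its genes some rose and 1 fell. Among the 14 genes for prefoldin, phosducin-like proteins and tubulin cofactors, Pfdn4 (0.63 ± 0.15) and Pfdn1 (0.33 ± 0.10) rose and Pfdn5 fell by 0.50 ± 0.11, from 73.6 ± 5.63 to 52.2 ± 5.11 CPM. Pfdn1 did not pass with any other scaling tried or by DESeq2 (adjusted p = 0.0932). The share called among these 14 genes was 21.4%, beside 30.9% of all genes. Of 14 further J proteins Dnajc2, which sits on the ribosome, rose by 0.70 ± 0.13 and Dnajc9, a histone co-chaperone, by 0.44 ± 0.10, and 0 fell. Dnajb2 measured 79.3 ± 6.05 CPM in ALP and 96.4 ± 5.29 CPM in control (adjusted p = 0.0777). Of these J proteins 14.3% were called, beside 30.9% of all genes.

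Of the 8 further small heat shock protein genes only 3 had enough counts to be tested. Cryab, encoding alpha-B-crystallin, rose by 1.03 ± 0.19 from 20.0 ± 3.42 to 41.0 ± 7.45 CPM (adjusted p = 0.018), in the opposite direction to Hspb8. Hspb11 and Hspb6, both under 7 CPM in each group's mean, did not pass. The share called among the 3 tested was thus 33.3%, beside 30.9% of all genes. Of 17 further mitochondrial import, co-chaperone and protease genes Dnajc11 (0.54 ± 0.10) and Afg3l2, of an inner membrane protease (0.30 ± 0.09, adjusted p = 0.049), rose and 0 fell, so that 11.8% were called beside 30.9% of all genes. Afg3l2 did not pass with any other scaling tried or by DESeq2 (adjusted p = 0.0854). Htra2, a protease of the intermembrane space, measured 23.8 ± 4.50 CPM against 16.0 ± 0.94 CPM (adjusted p = 0.0542), and Hsbp1, encoding a binding protein of heat shock factors, differed by -0.10 ± 0.09 (adjusted p = 0.401).

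**Figure D4:**
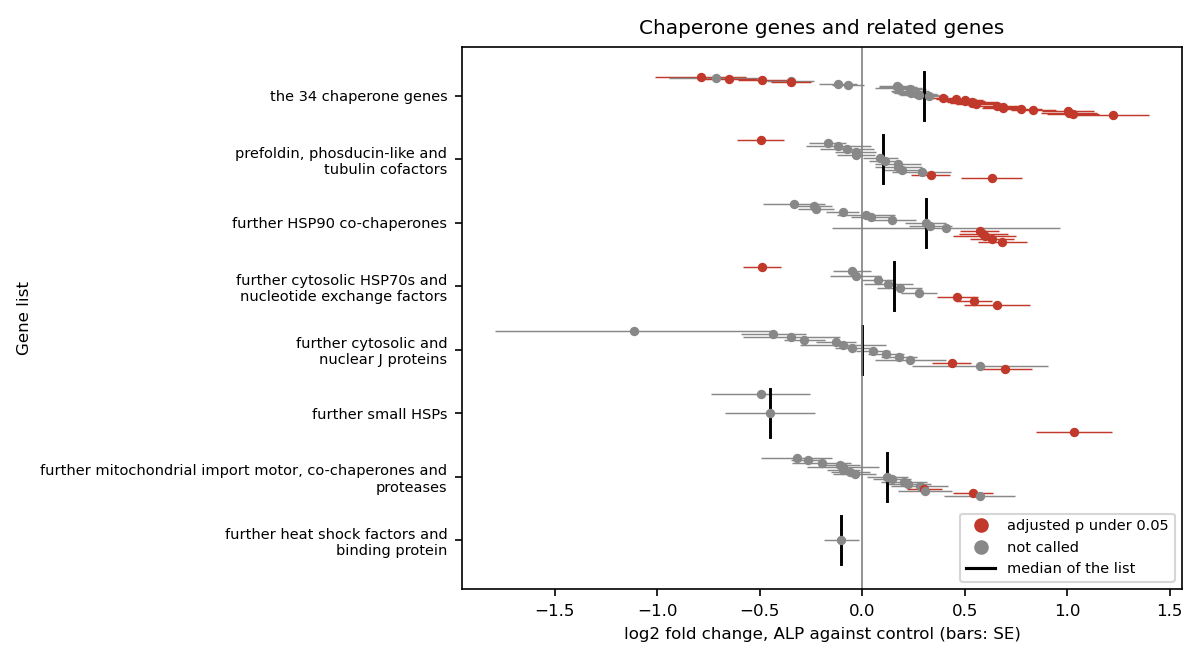
Log2 fold change of ALP against control (x axis, bars are SE) for the 34 chaperone genes and for the tested genes of 7 related lists (y axis), with called genes in red and the median of each list as a black line. The median is 0.30 for the 34 chaperone genes and 0.31 for the further HSP90 co-chaperones, and 0.0013 for the further J proteins.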

How the data were processed

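The authors deposited 1 table with a raw count per gene and library and their own comparison, whose normalized signal, log2 fold changes and p-values were not used here. The 4 other columns of values per library were not used either. The submitters' processing notes name HISAT2 2.0.5 and featureCounts 1.5.0-p3. The notes name a human build, but the identifiers are mouse ones, and 33 of the 34 members have the coordinates of GENCODE M21 (GRCm38), all but Stip1. Levels of different genes were compared only as CPM per kilobase of the deposited gene length. Columns name the group but carry other replicate numbers than the labels, so A and B follow column order and pair nothing.

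The count test was that of edgeR 4.0.16 under R 4.3.3 (filterByExpr with a minimum count of 10 and total of 15, TMM, glmQLFit with legacy off, two-sided quasi-likelihood F test, Benjamini-Hochberg adjustment over 14056 genes, threshold 0.05), with 2 residual degrees of freedom. It was tested on simulated data. SE was taken as the size of the log2 fold change over the root of F. CPM are TMM-scaled. DESeq2 1.42.0, limma 3.58.1, other scalings and filters, each library left out and Hspa1a with Hspa1b summed were the alternatives, and the legacy fit was added after seeing the data. The limits for a count of 0 cover counting error only, as no molecular identifiers were counted. All members are named, and per related list the 3 genes with the smallest p-values. Members and lists were chosen with earlier results of these data known. Promoter windows are from RefSeq. Stretches of 50 bases were compared between GENCODE M21 transcripts on both strands.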

Additional observations from a re-analysis of the deposited data

How the results depend on the processing

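The direction of all 34 members was the same in every alternative run in which the gene was tested. The 20 calls were kept with RLE scaling, library totals alone, upper quartile scaling, a minimum mean of 10 CPM, DESeq2 (22 called) and limma-voom (22 called), and the legacy fit kept 19, all but Dnajb1 (adjusted p = 0.0505). Without the low-count filter edgeR called 0 of all genes, 0 members and 0 related genes, with 7068 genes and 29 members at an unadjusted p under 0.05 and a smallest adjusted p of 0.0524 over 25280 genes. Leaving out 1 library gave between 0 and 7518 genes called (0 without either control library, where 3380 and 4131 genes had an unadjusted p under 0.05), between 0 and 29 members and between 0 and 32 related genes. Such fits take the spread from the other group alone, and the larger counts without ALP replicate A leave out the spread of the ALP pair.

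The HSP70 and HSP110 median was 0.78 with Hspa1a and Hspa1b summed. That of the J proteins with Bag3 was 0.14 with library totals alone, 0.14 with upper quartile scaling, 0.13 with a minimum mean of 10 CPM, and 0.094 to 0.20 with 1 library left out. The median of the 2 heat shock factors was 0.039, 0.037 and 0.025 under the first 3 of these and 0.060 to 0.092 with 1 library left out, and the log2 ratio of their sums was 0.095 with library totals alone and 0.19 with CPM per kilobase, against 0.13. The cause of these shifts was not tested. The ratios of gene pairs were not recomputed on a further length scale. No paired analysis was possible because the columns of the 2 groups share fewer than 2 replicate numbers, and these differ from the numbers in the labels. Total counts were 15766244 to 17430345 per library, and the lowest count of a member in any library was 479 (Hsf2). The effect of depth on the calls was not tested.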
